A study of Homo sapiens with 27 samples.

Results

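The genes described here encode 10 enzymes of phospholipid head group synthesis and fatty acyl remodelling, out of 20987 genes in the deposited table. They were taken by name from textbook biochemistry, with earlier results of these data known. They are CHKA, CHKB, PCYT1A, PCYT2, CHPT1, CEPT1, PEMT, PTDSS1, PISD and LPCAT1. All 10 were found in the table and passed the filter on low values in every comparison. Poly(A) RNA was sequenced for 27 libraries of 3 cell lines derived from human prostate cancers. LNCaP is labelled androgen sensitive, and 22Rv1 and LNCaP95 are labelled castration resistant. LNCaP95 is known as a derivative of LNCaP, so these lines share an origin. Each line received DMSO, which is the vehicle, or IPI-9119 at 100 nM or 500 nM for 6 days with no change of medium, in 3 libraries per group. IPI-9119 inhibits fatty acid synthase, the product of FASN, which makes palmitate. Whether the replicates were cultured separately is not stated in the labels, so p-values reflect only how these libraries vary, and that variation may be technical.

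Phosphatidylcholine and phosphatidylethanolamine, the main phospholipids of animal membranes, are made by parallel routes in which choline or ethanolamine is phosphorylated, activated with CTP and joined to diacylglycerol. Head groups are also exchanged or changed on finished lipids: phosphatidylserine synthase swaps choline for serine, a mitochondrial decarboxylase turns phosphatidylserine into phosphatidylethanolamine, and PEMT methylates phosphatidylethanolamine to phosphatidylcholine. Acyl chains are replaced in the Lands cycle, in which phospholipases A release a fatty acid and lysophospholipid acyltransferases such as LPCAT1 attach another. Phosphatidylcholine synthesis and choline kinase are widely studied in prostate cancer, since choline uptake is used to image the disease.

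Values are normalised read counts, the reads of a gene divided by a size factor of the library. Reads in genes numbered 14757874 to 26578881 per library, and the 10 enzymes held 0.0677% to 0.123% of them. The lowest read number behind any of the values was 73, for CHKB. All 9 luminal prostate markers averaged 10 or more in every line. For LNCaP their sum lay at 100899 to 115542 per library. The lower luminal sums of 22Rv1 and LNCaP95 lay at 50115 to 55143 and 55119 to 57312. In LNCaP the neuroendocrine markers summed to 238 to 471 and the basal and stromal markers to 531 to 667 (TP63, COL1A2 and DCN at 0). These sums were 5170 to 5760 and 794 to 888 in 22Rv1, and 778 to 1042 and 1910 to 2188 in LNCaP95 (KRT5 at 0), and their part in the results was not tested. Of the 8 basal and stromal markers, 4 averaged 10 or more in LNCaP, 4 in 22Rv1 and 3 in LNCaP95. Of the 7 neuroendocrine markers, 2, 4 and 3 did in the same lines. Of the basal and stromal list, KRT5, TP63 and COL1A2 averaged under 10 in each line. DCN was also under 10 in LNCaP and LNCaP95, and KRT14 in 22Rv1 and LNCaP95. Fewer cells of a type and less RNA per cell cannot be told apart in such samples. Some libraries stood apart. FASN in LNCaP was 54998, 29273 and 28676 under DMSO, 227517, 51994 and 45537 at 100 nM and 234767, 133676 and 126294 at 500 nM in replicates 1, 2 and 3, so replicate 1 was highest in each group. In LNCaP95, mitochondrially encoded genes took 7.56% and 6.92% of reads in the treated replicate 2 libraries, against 1.78% to 3.75% in the other 7. The number of genes detected in the 22Rv1 libraries was 15585 to 15962, apart from DMSO replicate 3 with 18444. Results were therefore also computed with LNCaP replicates 2 and 3 only, with LNCaP95 replicates 1 and 3 only and without each library in turn.

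Expression of the enzymes under the inhibitor took a different form in each line. In LNCaP at 500 nM, 5 of 10 rose: CHKA, CHKB, PCYT2, CHPT1 and LPCAT1. In 22Rv1, PCYT2 and LPCAT1 rose and CHPT1 fell. In LNCaP95, 5 rose (CHKB, PCYT1A, CEPT1, PEMT and LPCAT1) and 3 fell (CHPT1, PTDSS1 and PISD). These calls are from limma on log2(value + 1), with Benjamini-Hochberg adjusted p under 0.05 over all genes tested. Over all genes, 20.8% were called in LNCaP at 500 nM, 11.0% as higher and 9.83% as lower, so 5 higher of 10 stands against 11.0%. Since the 10 were chosen with earlier results of these data known, such shares are a reference and do not test the set. In 22Rv1 the share was 6.97%, with 3.47% higher and 3.50% lower. In LNCaP95 52.3% of all genes were called, 28.2% higher and 24.1% lower, so 8 of 10 was read against a line in which most genes moved. At 100 nM, 4 enzymes rose in LNCaP (13.7% of all genes, with 11.6% lower), 2 rose in 22Rv1 (3.19%, with 3.36% lower) and 4 rose and 4 fell in LNCaP95 (28.2% and 24.1%); the shares called in either direction were 25.3%, 6.55% and 52.3%. Values did not overlap with DMSO for 7, 4 and 9 of 10 enzymes at 500 nM in LNCaP, 22Rv1 and LNCaP95, and for 40.8%, 31.2% and 58.9% of all genes. At 100 nM they did not overlap for 5, 3 and 8 enzymes and for 36.8%, 24.7% and 60.5% of all genes. The 100 nM and 500 nM comparisons of a line share their 3 vehicle libraries. The median log2 fold change of the 10 enzymes at 500 nM was 0.45 in LNCaP, 0.00 in 22Rv1 and 0.14 in LNCaP95, beside -0.01, 0.00 and 0.03 over all genes tested. The share of called genes that were higher depended on the scaling. It was 52.8% in LNCaP and 49.8% in 22Rv1 at 500 nM, and 69% and 26.7% with equal library totals. At 100 nM it was 54.3% and 48.7%, against 65.7% and 26.9%.

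**Figure D1:**
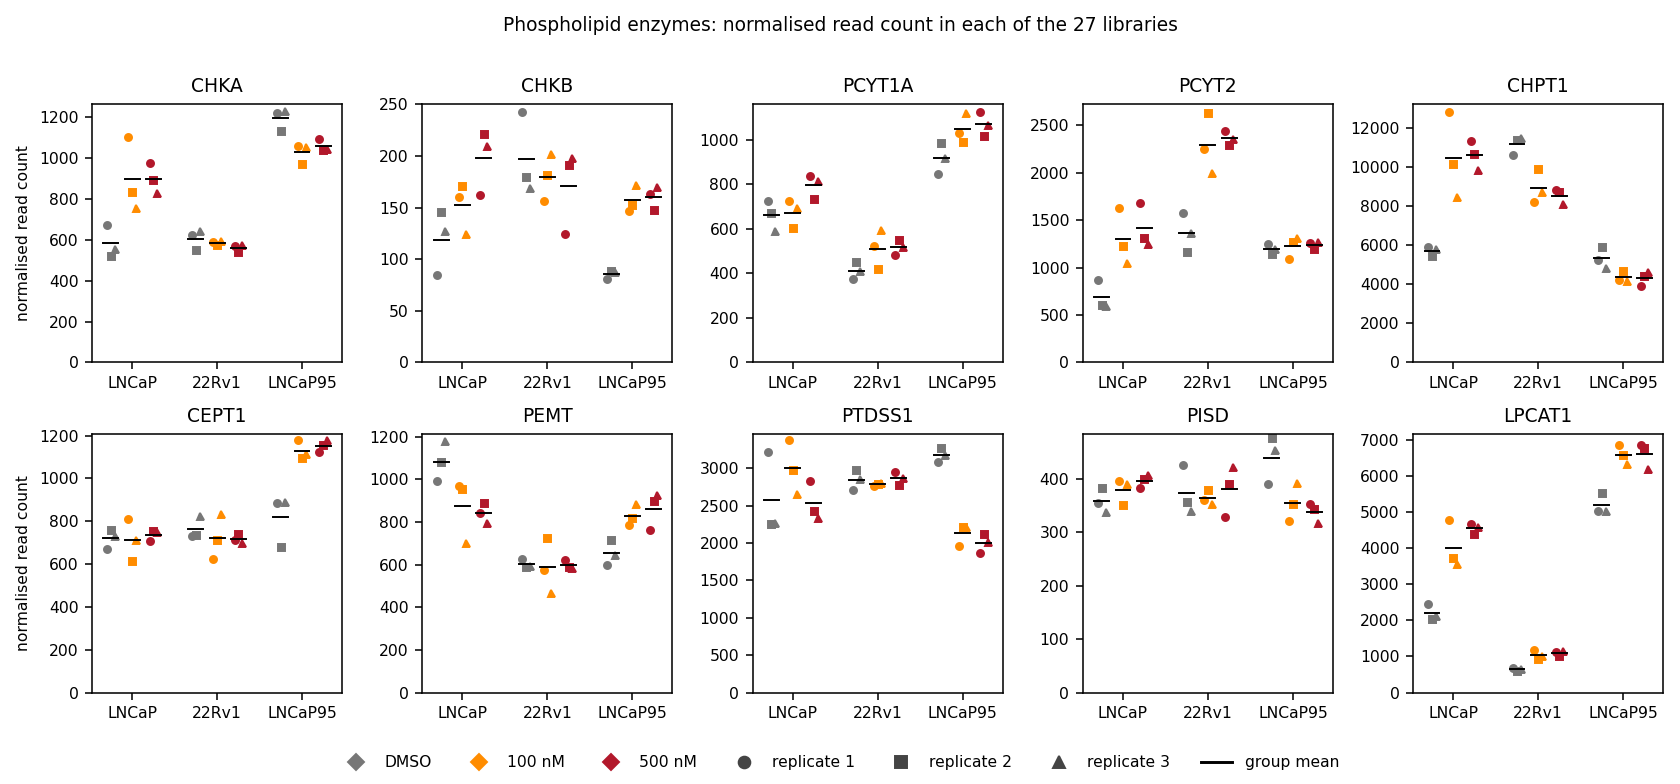
Normalised read count (vertical axes, starting at 0 and scaled per gene) of each of the 10 enzymes in the 27 libraries, by cell line along the horizontal axis. Grey, orange and red points are DMSO, 100 nM and 500 nM, the shape gives the replicate and the line is the group mean. LPCAT1 has the widest range over libraries as a fold, 587 to 6861 or 11.7-fold.

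**Figure D2:**
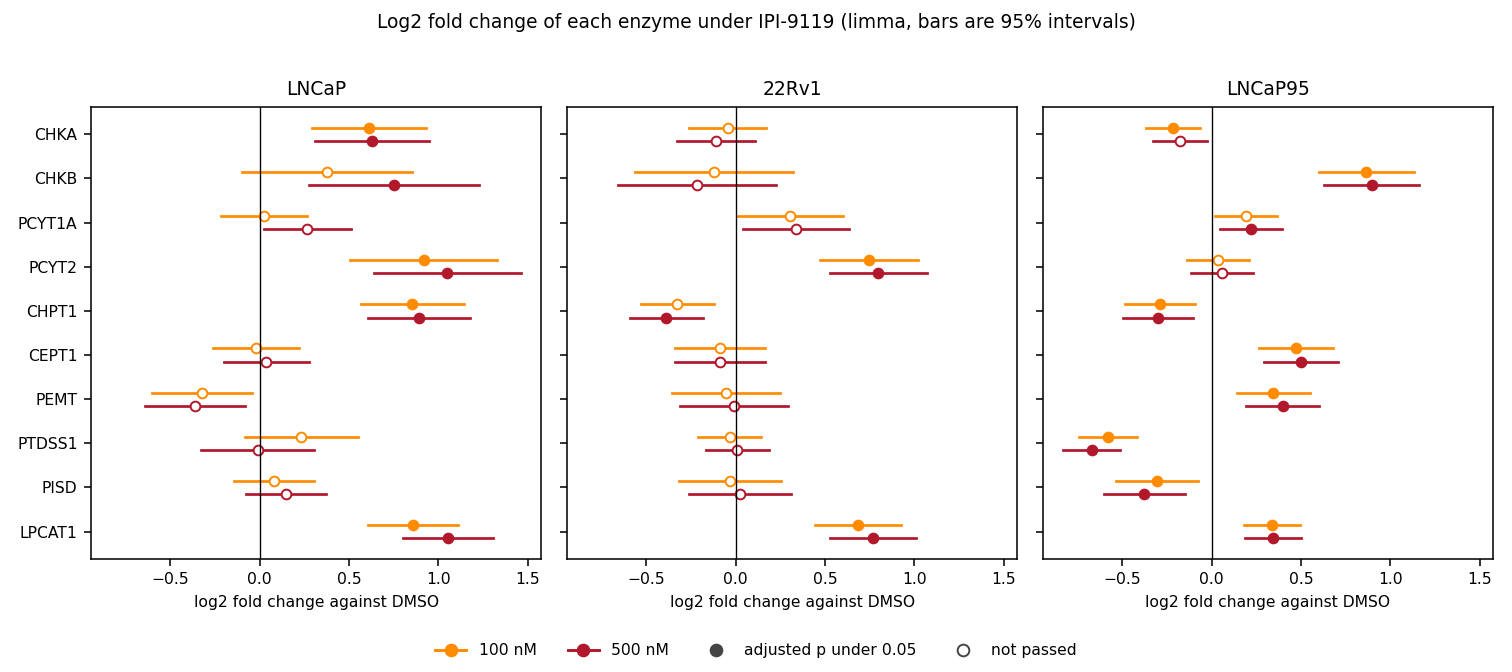
Log2 fold change against DMSO (horizontal axis) of each enzyme (vertical axis) at 100 nM in orange and 500 nM in red, for the 3 lines, from limma on 3 libraries per group. Bars are 95% intervals and filled points passed an adjusted p of 0.05; CHPT1 lies at 0.89 in LNCaP and at -0.39 in 22Rv1 at 500 nM.

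The promoters of 3 enzymes are shown because of how their genes moved. PCYT2 and LPCAT1 rose together in LNCaP and 22Rv1, and CHPT1 moved in opposite directions in LNCaP and in 22Rv1. Sequences are the 250 bases before the RefSeq gene start, 5′ to 3′ on the strand of the gene, in GRCh38.p14, a later build than the hg19 of the deposited data. PCYT2 lies on the minus strand at chr17:81911400-81911649, LPCAT1 on the minus strand at chr5:1523961-1524210 and CHPT1 on the plus strand at chr12:101697390-101697639. Capitals mark matches, on either strand, to the GC box GGGCGG and to the NF-Y box CCAAT.
PCYT2: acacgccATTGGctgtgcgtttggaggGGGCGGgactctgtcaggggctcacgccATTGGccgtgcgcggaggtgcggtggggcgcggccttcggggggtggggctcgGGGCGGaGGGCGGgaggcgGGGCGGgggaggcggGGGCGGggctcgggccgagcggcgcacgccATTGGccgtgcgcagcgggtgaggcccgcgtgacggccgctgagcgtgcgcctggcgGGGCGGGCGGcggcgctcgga
LPCAT1: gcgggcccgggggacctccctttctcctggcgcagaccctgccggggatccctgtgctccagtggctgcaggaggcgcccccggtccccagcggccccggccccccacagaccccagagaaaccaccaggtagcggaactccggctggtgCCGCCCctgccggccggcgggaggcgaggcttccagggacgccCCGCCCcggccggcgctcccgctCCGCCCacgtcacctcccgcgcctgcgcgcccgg
CHPT1: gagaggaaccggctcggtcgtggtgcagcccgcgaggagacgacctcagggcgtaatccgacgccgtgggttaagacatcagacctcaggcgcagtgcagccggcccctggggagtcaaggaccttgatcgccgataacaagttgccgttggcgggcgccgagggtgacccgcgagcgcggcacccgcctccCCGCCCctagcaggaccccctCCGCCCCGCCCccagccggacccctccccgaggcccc
PCYT2 held 7 GC boxes, 2 of which overlap each other, and 3 CCAAT boxes, which read ATTGG on the strand printed. LPCAT1 held 3 GC boxes, and CHPT1 held 3, of which 2 overlap; neither held CCAAT. The RefSeq table held promoters of 8 of the 10 enzymes, all but CHKA and PTDSS1. GC boxes were in 5 of these 8 and in 42.3% of 27305 promoters, and CCAAT was in 2 of 8 (PCYT2 and CHKB) and in 33.0% of all. The sterol element form TCACNCCAC was in 0 of 8 and in 0.875% of all, the E-box CACGTG in 0 of 8 and in 6.49%, and TGATGNAA, a form bound by ATF4 and C/EBP factors, in 0 of 8 and in 3.19%. At shares this low, 0 of 8 is the likeliest count, so these zeros do not set the enzymes apart from other genes. A match is a run of letters and not a measured binding site, and no match concerns only this window. GC content was 80.0% in PCYT2, 78.8% in LPCAT1 and 72.0% in CHPT1, with a median of 58.0% over all promoters.

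Choline kinases carry out the phosphorylation that commits choline to the CDP-choline route. CHKA encodes the alpha form, which is raised in many tumours. In LNCaP, CHKA was at 673, 519 and 557 in the DMSO libraries, 1102, 833 and 756 at 100 nM and 975, 890.2 and 828 at 500 nM. All treated libraries lay above all DMSO libraries. The rise was 0.63 ± 0.15, adjusted p = 0.0117 at 500 nM and 0.61 ± 0.15, adjusted p = 0.0119 at 100 nM (log2 fold change ± SE, n = 3, limma). Leaving out DMSO replicate 2 cost CHKA its call at 500 nM (0.55, adjusted p = 0.0520), as did leaving out 500 nM replicate 1 (0.57, adjusted p = 0.0519). The call was likewise lost at 100 nM without DMSO replicate 2 (0.53, adjusted p = 0.0543). In 22Rv1 CHKA was at 625, 550.1 and 643 under DMSO and 569, 540.0 and 572 at 500 nM, and the groups overlapped (-0.11 ± 0.10, adjusted p = 0.565). In LNCaP95 CHKA stood highest of the lines, at 1222, 1132 and 1230 under DMSO, 1058, 968 and 1056 at 100 nM and 1091, 1040 and 1044 at 500 nM. Every treated library was below every DMSO library, but the difference passed only at 100 nM (-0.22 ± 0.07, adjusted p = 0.0186) and not at 500 nM (-0.17 ± 0.07, adjusted p = 0.0506). With a block for replicate number, CHKA at 500 nM passed (-0.17, adjusted p = 0.0168), as it did by edgeR (0.0235), by DESeq2 (0.0253) and without DMSO replicate 2 (-0.21, adjusted p = 0.0259). The 100 nM call was lost without DMSO replicate 1 (adjusted p = 0.0618), DMSO replicate 3 (0.0636) or 100 nM replicate 2 (0.0871), and with replicates 1 and 3 only (0.0507).

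CHKB, the beta choline kinase, was the least abundant of the 10 by reads. In LNCaP95 it was at 81.0, 88.4 and 87.3 under DMSO, 146, 153 and 172 at 100 nM and 163, 147 and 170.0 at 500 nM. No treated library reached down to the DMSO libraries, and the gene rose by 0.90 ± 0.12, adjusted p = 5.43e-05 at 500 nM and by 0.87 ± 0.12, adjusted p = 6.98e-05 at 100 nM, a 1.86-fold and 1.82-fold change. In LNCaP, CHKB was at 84.2, 146 and 127 under DMSO, 161, 171 and 124 at 100 nM and 162, 222 and 209 at 500 nM. The 500 nM libraries were above the DMSO libraries without overlap, and the 100 nM libraries overlapped both. The rise was 0.75 ± 0.22, adjusted p = 0.0310 at 500 nM, and 100 nM did not pass (0.37 ± 0.22, adjusted p = 0.221). This call rested on single libraries: it was lost without DMSO replicate 1 (0.52, adjusted p = 0.0509), DMSO replicate 3 (0.82, 0.0617), 500 nM replicate 2 (0.66, 0.110) or 500 nM replicate 3 (0.70, 0.0992). In 22Rv1, CHKB was at 242, 179 and 169 under DMSO and 124, 191 and 198 at 500 nM, with overlapping groups (-0.22 ± 0.20, adjusted p = 0.578, 95% interval -0.66 to 0.22). The GENCODE v29 annotation places MAPK8IP2 across CHKB on the opposite strand. MAPK8IP2 was not called in any line at 500 nM. Under DMSO it was at 451% of the CHKB level in LNCaP, 2510% in 22Rv1 and 190% in LNCaP95. Without the strand setting of the authors' counting, reads of this pair cannot be told apart. The read-through gene CHKB-CPT1B lies across CHKB on the same strand and averaged 0 to 1.42 in the DMSO and 500 nM groups; how the counting treated reads shared with it is not known from these files.

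The CTP-using transferases make the CDP-activated head group and are the usual point of control of each route. PCYT2 acts on phosphoethanolamine. In LNCaP it was at 866, 602 and 592 under DMSO, 1624, 1224 and 1045 at 100 nM and 1684, 1307 and 1245 at 500 nM. Replicate 1 was highest in each of these groups, and all treated libraries lay above all DMSO libraries. PCYT2 rose by 1.05 ± 0.19, adjusted p = 0.00300 at 500 nM and 0.92 ± 0.19, adjusted p = 0.00591 at 100 nM. With replicates 2 and 3 only the rise was 1.09 (adjusted p = 2.27e-05) and 0.92 (adjusted p = 6.59e-05). In 22Rv1, PCYT2 was at 1571, 1165 and 1365 under DMSO, 2250, 2625 and 1997 at 100 nM and 2441, 2290 and 2356 at 500 nM. Again no groups of treated and vehicle libraries overlapped, and PCYT2 rose by 0.80 ± 0.12, adjusted p = 0.00301 at 500 nM and 0.75 ± 0.12, adjusted p = 0.00534 at 100 nM. These calls held without each of the libraries in turn in both lines. In LNCaP95, PCYT2 was at 1252, 1138 and 1191 under DMSO, 1092, 1275 and 1312 at 100 nM and 1258, 1194 and 1272 at 500 nM. The groups overlapped, and the 95% interval of the 500 nM effect was -0.12 to 0.23 on the log2 scale. ANAPC11 and NPB lie across PCYT2 on the opposite strand, and no source used here gives the strand setting of the authors' counting. NPB, at 10.1% to 14.1% of the PCYT2 level under DMSO, rose in LNCaP as well (1.08 ± 0.27, adjusted p = 0.0157). ANAPC11, at 254% to 463% of the PCYT2 level under DMSO, was not called in any line.

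PCYT1A encodes the alpha CTP:phosphocholine enzyme of the choline route, its main regulatory enzyme. Its differences at 500 nM were small and of the same sign in the 3 lines. In LNCaP95 it was at 847, 987 and 921 under DMSO, 1033, 992 and 1120 at 100 nM and 1125, 1018 and 1066 at 500 nM, with all treated libraries above the vehicle libraries. It rose at 500 nM (0.22 ± 0.08, adjusted p = 0.0325) and missed the threshold at 100 nM (0.19 ± 0.08, adjusted p = 0.0588). The 500 nM call was lost by edgeR (adjusted p = 0.0632), by DESeq2 (0.0769), with equal totals (0.0937) and without DMSO replicate 1 (0.138), DMSO replicate 3 (0.0651), 500 nM replicate 1 (0.106) or 500 nM replicate 3 (0.0667). With the replicate block the 100 nM value passed (0.19, adjusted p = 0.0320), as it did without DMSO replicate 2 (0.0251) and with replicates 1 and 3 only (0.28, 0.0285). In LNCaP, PCYT1A was at 726, 673 and 589 under DMSO and 837, 734 and 816 at 500 nM (0.27 ± 0.11, adjusted p = 0.109); without DMSO replicate 1 this became 0.34, adjusted p = 0.0425. In 22Rv1 it was at 373, 450.2 and 410.5 and 483, 552 and 520.1 (0.34 ± 0.14, adjusted p = 0.164). In these lines the 500 nM libraries lay above the DMSO libraries without overlap, though by a margin as small as 734 against 726 in LNCaP.

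The last step joins the activated head group to diacylglycerol. CHPT1 encodes a cholinephosphotransferase of the Golgi, and CEPT1 the enzyme of the endoplasmic reticulum that accepts both CDP-choline and CDP-ethanolamine. CHPT1 in LNCaP was at 5923, 5419 and 5782 under DMSO, 12778, 10129 and 8468 at 100 nM and 11329, 10632 and 9822 at 500 nM. Every treated library was higher than every vehicle library, by 1.85-fold at 500 nM (0.89 ± 0.13, adjusted p = 0.000980) and 1.81-fold at 100 nM (0.85 ± 0.13, adjusted p = 0.00126), and the calls held without each library in turn. In 22Rv1, CHPT1 was at 10606, 11390 and 11449 under DMSO, 8187, 9876 and 8694 at 100 nM and 8791, 8690 and 8098 at 500 nM. Here every treated library was lower. CHPT1 fell at 500 nM (-0.39 ± 0.094, adjusted p = 0.0282) and missed the threshold at 100 nM (-0.33 ± 0.094, adjusted p = 0.0607). The 500 nM call held without DMSO replicate 1 and was lost in the other 5 fits that left out a library: without DMSO replicate 2 (adjusted p = 0.101), DMSO replicate 3 (0.100), and 500 nM replicate 1 (0.0755), 2 (0.0924) or 3 (0.111), at log2 fold changes of -0.41 to -0.35. The 100 nM value passed with equal totals (-0.42, adjusted p = 0.0132), by DESeq2 (0.0246) and without 100 nM replicate 2 (-0.40, 0.0138). In LNCaP95, CHPT1 was at 5211, 5918 and 4840 under DMSO, 4220, 4658 and 4156 at 100 nM and 3886, 4435 and 4647 at 500 nM. It fell by a small margin, -0.30 ± 0.091, adjusted p = 0.0143 at 500 nM and -0.29 ± 0.091, adjusted p = 0.0169 at 100 nM. With replicates 1 and 3 only these values no longer passed (-0.24, adjusted p = 0.0760, and -0.26, adjusted p = 0.0587), nor did the 500 nM value without DMSO replicate 2 (0.0577) or 500 nM replicate 1 (0.0625), or the 100 nM value without DMSO replicate 2 (0.0676), 100 nM replicate 1 (0.0549) or 100 nM replicate 3 (0.0620). SYCP3, which lies across CHPT1 on the opposite strand, was at 1.29% to 1.94% of its level under DMSO and was higher in LNCaP (0.83 ± 0.23, adjusted p = 0.0256) and lower in 22Rv1 (-0.60 ± 0.16, adjusted p = 0.0478). Without the strand setting, reads of this pair cannot be told apart.

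CEPT1 rose in LNCaP95, from 887, 680.1 and 892 under DMSO to 1180, 1093 and 1116 at 100 nM and 1122, 1157 and 1178 at 500 nM. The lowest treated library, at 1093, was above the highest vehicle library, at 892. The rise was 0.50 ± 0.10, adjusted p = 0.000726 at 500 nM and 0.47 ± 0.10, adjusted p = 0.00112 at 100 nM. In LNCaP CEPT1 was at 669, 760.3 and 729.6 under DMSO and 708, 753 and 751 at 500 nM, with overlapping groups (95% interval of the log2 fold change -0.20 to 0.28). In 22Rv1 it was at 730.1, 734 and 825 and 713, 740.4 and 700.0, again overlapping (95% interval -0.34 to 0.17). DRAM2, on the opposite strand across CEPT1, also rose in LNCaP95 (0.39 ± 0.10, adjusted p = 0.00488). Under DMSO it was at 72.3% of the CEPT1 level in LNCaP, 101% in 22Rv1 and 50.8% in LNCaP95. Reads of CEPT1 and DRAM2 cannot be told apart either, as the strand setting of the counting is not given.

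PEMT, best known for its role in liver, was measured in every library. In LNCaP95 it was at 599.6, 717 and 644 under DMSO, 784, 818 and 886 at 100 nM and 762, 897 and 928 at 500 nM. The treated libraries lay above the vehicle libraries, and PEMT rose by 0.40 ± 0.10, adjusted p = 0.00337 at 500 nM and 0.35 ± 0.10, adjusted p = 0.00809 at 100 nM. In LNCaP the order was the opposite, with 993, 1082 and 1178 under DMSO, 969.6, 954 and 701 at 100 nM and 845, 890.2 and 795 at 500 nM. All treated libraries were below the vehicle libraries, yet neither dose passed (-0.36 ± 0.13, adjusted p = 0.0666, and -0.32 ± 0.13, adjusted p = 0.0854). The 500 nM value passed by DESeq2 (adjusted p = 0.0471), without DMSO replicate 1 (-0.42, 0.0348) and with replicates 2 and 3 only (-0.42, 0.0404), and the 100 nM value without DMSO replicate 1 (-0.38, 0.0446) and with replicates 2 and 3 only (-0.46, 0.0233). In 22Rv1 PEMT was at 626, 587 and 594 under DMSO and 622, 590.4 and 585 at 500 nM, and the groups overlapped (95% interval -0.31 to 0.29).

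PTDSS1 makes phosphatidylserine from phosphatidylcholine, and PISD decarboxylates phosphatidylserine in the inner mitochondrial membrane. Both fell in LNCaP95. PTDSS1 was at 3087, 3271 and 3180 under DMSO, 1957, 2218 and 2217 at 100 nM and 1867, 2118 and 2018 at 500 nM. The groups were far apart relative to their spread, and PTDSS1 fell by 0.67 ± 0.074 on the log2 scale at 500 nM (adjusted p = 9.30e-06) and by 0.58 ± 0.074 at 100 nM (adjusted p = 2.90e-05), and held without each library in turn. PISD in LNCaP95 was at 390.0, 477 and 454 under DMSO, 321, 354 and 393 at 100 nM and 354, 344 and 317 at 500 nM. The 500 nM group lay below the vehicle group and the 100 nM group overlapped it. It fell at 500 nM (-0.38 ± 0.11, adjusted p = 0.00929) and 100 nM (-0.31 ± 0.11, adjusted p = 0.0268). With replicates 1 and 3 only PISD did not pass at either dose (-0.33, adjusted p = 0.0820, and -0.24, adjusted p = 0.180), and the 100 nM value did not pass without DMSO replicate 2 (0.0919), DMSO replicate 3 (0.0779), 100 nM replicate 1 (0.118) or 100 nM replicate 2 (0.0617). In LNCaP, PTDSS1 was at 3214, 2254 and 2265 under DMSO, 3382, 2974 and 2649 at 100 nM and 2823, 2429 and 2333 at 500 nM. DMSO replicate 1 stood above the other vehicle libraries and the groups overlapped (-0.01 ± 0.14, adjusted p = 0.963, and 0.23 ± 0.14, adjusted p = 0.251). Without it the 100 nM value was 0.40 (adjusted p = 0.0177), and with replicates 2 and 3 only 0.31 (adjusted p = 0.0201). In 22Rv1, PTDSS1 was at 2712, 2977 and 2852 and 2953, 2770 and 2869, with a 95% interval of -0.17 to 0.18. PISD had the narrowest range of the 10 over the 27 libraries, 317 to 477, and in LNCaP and 22Rv1 its 95% intervals at 500 nM were -0.075 to 0.37 and -0.26 to 0.31. SFI1 lies across PISD on the opposite strand in GENCODE v29. Under DMSO it was at 77.6% of the PISD level in LNCaP, 243% in 22Rv1 and 48.8% in LNCaP95. SFI1 was not called in any line at 500 nM. Reads of PISD and SFI1 cannot be told apart without the strand setting.

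LPCAT1, which attaches acyl chains to lysophosphatidylcholine and prefers saturated ones such as palmitate, was the only one of the 10 called in all 6 comparisons of a dose with DMSO. In LNCaP it was at 2459, 2032 and 2127 under DMSO, 4777, 3725 and 3552 at 100 nM and 4675, 4408 and 4606 at 500 nM. In 22Rv1 it was at 679, 587 and 665 under DMSO, 1169, 930.1 and 1013 at 100 nM and 1122, 1025 and 1144 at 500 nM. In LNCaP95 it was at 5048, 5547 and 5049 under DMSO, 6860, 6594 and 6328 at 100 nM and 6861, 6796 and 6202 at 500 nM. In each line every treated library was above every vehicle library. The 500 nM rise was 2.07-fold in LNCaP (adjusted p = 0.000144), 1.70-fold in 22Rv1 (0.77 ± 0.11, adjusted p = 0.00189) and 1.27-fold in LNCaP95 (0.34 ± 0.073, adjusted p = 0.00153). At 100 nM the log2 fold changes were 0.86 ± 0.12, 0.68 ± 0.11 and 0.34 ± 0.073, with adjusted p of 0.000623, 0.00417 and 0.00168. None of the 6 calls was lost when a library was left out. The lines stayed apart whatever the treatment: the highest 22Rv1 library, 1169, was below the lowest LNCaP library, 2032, and the highest LNCaP library, 4777, was below the lowest LNCaP95 library, 5048. No other gene of the table lies across LPCAT1 in GENCODE v29.

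Over the 3 lines together, with the line as a term in 1 fit of the 18 DMSO and 500 nM libraries, 4 of the 10 were called, all higher (13.0% of all genes were called higher and 9.71% lower, 22.7% in all). They were LPCAT1 (0.72 ± 0.084, adjusted p = 1.30e-05), PCYT2 (0.64 ± 0.13, adjusted p = 0.00157), PCYT1A (0.27 ± 0.059, adjusted p = 0.00306) and CHKB (0.48 ± 0.17, adjusted p = 0.0447). Of these, LPCAT1 was called in each line, whereas PCYT2 in LNCaP95, CHKB in 22Rv1 and PCYT1A in LNCaP and 22Rv1 were not called in the fit of that line. CHKB was the call that depended on the settings. It was lost with no filter (adjusted p = 0.0675), with equal totals (0.0677), with the replicate block (0.100) and in 14 of 18 fits without a library (adjusted p 0.0503 to 0.0838). It held only without 22Rv1 DMSO replicate 1 or 2, 22Rv1 500 nM replicate 1 or LNCaP DMSO replicate 2.

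Differences of the 500 nM effect between lines were tested in 1 fit of all 27 libraries, which gives each gene 1 spread over all lines. Between LNCaP95 and LNCaP, 8 of 10 effects differed, 2 being more positive in LNCaP95 and 6 in LNCaP (38.9% of all genes, 19.8% more positive in the line named first and 19.1% less). CHPT1 differed most, by -1.19 ± 0.16, adjusted p = 2.78e-06, followed by PCYT2 (-0.99 ± 0.21, adjusted p = 0.000714) and CHKA (-0.80 ± 0.16, adjusted p = 0.000237). PEMT was 0.76 ± 0.18 and CEPT1 0.47 ± 0.15 more positive in LNCaP95. PTDSS1, PISD and LPCAT1 differed by -0.66 ± 0.15, -0.52 ± 0.16 and -0.71 ± 0.14. The difference of CEPT1 was lost with equal totals (adjusted p = 0.0986), without LNCaP DMSO replicate 2 (0.0508) and without LNCaP95 DMSO replicate 2 (0.0778). Between 22Rv1 and LNCaP, 3 effects differed, all more positive in LNCaP (14.3% of all genes, 6.79% more positive in the line named first and 7.52% less): CHPT1 (-1.28 ± 0.16, adjusted p = 3.99e-06), CHKB (-0.97 ± 0.28, adjusted p = 0.0192) and CHKA (-0.74 ± 0.16, adjusted p = 0.00213). CHKB did not pass without LNCaP 500 nM replicate 2 (0.0560), 22Rv1 DMSO replicate 1 (0.0570) or 22Rv1 500 nM replicate 1 (0.0735). The rises of PCYT2 and LPCAT1 did not pass as different between these lines, with 95% intervals of -0.69 to 0.19 and -0.58 to 0.011; that of LPCAT1 passed with equal totals (-0.44, adjusted p = 0.0220). Between LNCaP95 and 22Rv1, 5 effects differed (25.4% of all genes, 13.0% more positive in the line named first and 12.4% less). CHKB (1.11 ± 0.28) and CEPT1 (0.59 ± 0.15) were more positive in LNCaP95, and PCYT2 (-0.74 ± 0.21), PTDSS1 (-0.68 ± 0.15) and LPCAT1 (-0.43 ± 0.14, adjusted p = 0.0307) in 22Rv1. LPCAT1 did not pass without 22Rv1 DMSO replicate 2 (0.0882), 22Rv1 500 nM replicate 1 (0.0606) or 3 (0.0685), LNCaP95 DMSO replicate 2 (0.0780) or LNCaP95 500 nM replicate 3 (0.0766). PISD (-0.40 ± 0.16, adjusted p = 0.0622) passed by edgeR (0.0460) and without 22Rv1 DMSO replicate 1 (0.0225), 22Rv1 500 nM replicate 1 (0.0243) or LNCaP95 DMSO replicate 1 (0.0321), and PEMT (0.41 ± 0.18, adjusted p = 0.105) passed with equal totals (0.0322). Scaling to equal totals moved the median difference of all genes by -0.16 between 22Rv1 and LNCaP, and the share of higher calls from 47.4% to 21.4% there, from 50.9% to 39.5% between LNCaP95 and LNCaP and from 51.2% to 61.6% between LNCaP95 and 22Rv1. Differences at 100 nM were not tested.

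**Figure D3:**
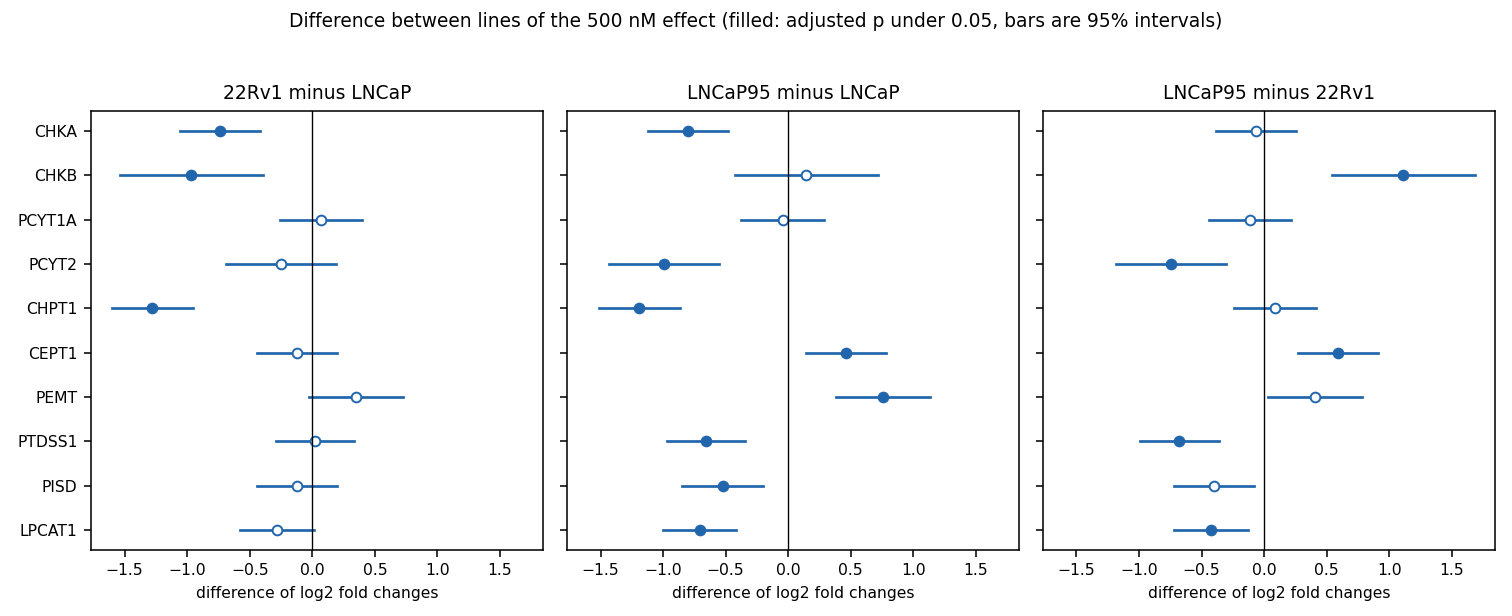
Difference between cell lines of the log2 fold change at 500 nM (horizontal axis) for each enzyme (vertical axis), from 1 limma fit of 27 libraries; a value below 0 is a smaller or more negative effect in the line named first. Bars are 95% intervals and filled points passed an adjusted p of 0.05, 3, 8 and 5 of 10 in the panels from left to right.

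The doses of each line were also compared with each other. By limma 0 of 10 enzymes were called in the comparison of the doses in each of the 3 lines, and likewise 0 by edgeR and by DESeq2, while 1, 0 and 0 had an unadjusted p under 0.05 in LNCaP, 22Rv1 and LNCaP95. The exception was PCYT1A in LNCaP (0.24 ± 0.11, adjusted p = 0.438). Over all genes, limma called 0.00779% in LNCaP, 0% in 22Rv1 and 0% in LNCaP95, with 1463, 152 and 95 genes at an unadjusted p under 0.05. In LNCaP the 95% interval of LPCAT1 for 500 nM against 100 nM was -0.058 to 0.45, in 22Rv1 it was -0.16 to 0.33 and in LNCaP95 it was -0.15 to 0.16. For PCYT2 these intervals were -0.28 to 0.54, -0.22 to 0.32 and -0.15 to 0.19. These intervals do not show that the doses act alike.

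Without the inhibitor, the lines carried different amounts of these transcripts. Between 22Rv1 and LNCaP under DMSO, 3 were higher and 3 lower in 22Rv1 (74.8% of all genes called, 39.3% higher and 35.5% lower). CHPT1 was 0.97 ± 0.11, PCYT2 1.0 ± 0.15 and CHKB 0.74 ± 0.20 above LNCaP on the log2 scale, and LPCAT1 (-1.77 ± 0.10), PEMT (-0.84 ± 0.13) and PCYT1A (-0.69 ± 0.11) were below it. Between LNCaP95 and LNCaP, 6 were higher and 1 lower in LNCaP95 (66.5% of all genes, 34.0% higher and 32.5% lower). LPCAT1 was higher by 1.24 ± 0.10, CHKA by 1.04 ± 0.11, PCYT2 by 0.82 ± 0.15, PCYT1A by 0.47 ± 0.11, PTDSS1 by 0.32 ± 0.11 and PISD by 0.29 ± 0.11, and PEMT was lower (-0.73 ± 0.13). PISD did not pass without LNCaP DMSO replicate 1 (adjusted p = 0.0506) or 3 (0.0863) or LNCaP95 DMSO replicate 2 (0.107) or 3 (0.0716), nor PTDSS1 without LNCaP DMSO replicate 2 (0.0817) or 3 (0.0773). CHKB (-0.44 ± 0.20, adjusted p = 0.0582) passed by edgeR (0.0415), by DESeq2 (0.0289) and without LNCaP DMSO replicate 1 (-0.66, 0.00537), and PTDSS1 between 22Rv1 and LNCaP (0.16 ± 0.11, adjusted p = 0.173) passed without the same library (0.33, 0.00259) and with equal totals (0.23, 0.0383). CEPT1 between LNCaP95 and LNCaP (0.18 ± 0.11, adjusted p = 0.154) passed with equal totals (0.39, 0.00765) and without LNCaP95 DMSO replicate 2 (0.31, 0.0173). LNCaP95 against 22Rv1 gave 3 higher and 2 lower (76.1% of all genes, 35.4% higher and 40.8% lower): LPCAT1 by 3.02 ± 0.10, which is 8.10-fold, PCYT1A by 1.16 ± 0.11 and CHKA by 0.98 ± 0.11, with CHKB (-1.18 ± 0.20) and CHPT1 (-1.07 ± 0.11) lower. MAPK8IP2, across CHKB on the opposite strand, averaged 537 in LNCaP, 4944 in 22Rv1 and 162 in LNCaP95 under DMSO. Its part in the CHKB differences was not tested. With equal totals the medians of all genes moved by 0.21 for LNCaP95 against LNCaP and by 0.14 for LNCaP95 against 22Rv1, the share of higher calls in the former went from 51.1% to 63.2%, and 8 instead of 5 enzymes were called in the latter, with PEMT (0.25), PTDSS1 (0.30) and PISD (0.37) added as higher. PISD between these lines (0.24 ± 0.11, adjusted p = 0.0580) did not pass by limma but passed by edgeR (0.0191) and without 22Rv1 DMSO replicate 1 (0.33, 0.0140) or LNCaP95 DMSO replicate 1 (0.32, 0.0214).

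The order of the 9 group means differed by enzyme. LPCAT1 kept the lines apart, LNCaP95 above LNCaP above 22Rv1 whatever the treatment, and within each line the groups at 100 nM and 500 nM overlapped while the vehicle group stood below both. CHPT1 did not keep them apart: the 22Rv1 DMSO mean of 11149 ± 471 (SD, n = 3) was followed by LNCaP at 500 nM with 10595 ± 754, and these neighbours overlapped, whereas LNCaP under DMSO was at 5708 ± 259.8. For CHKB, LNCaP at 500 nM (198 ± 31.3) was at the top and LNCaP95 under DMSO (85.6 ± 4.0) at the bottom, and every pair of neighbours in the order overlapped. The same was true of PISD. PTDSS1 in treated LNCaP95 was below all other groups. Per kilobase of the longest principal transcript in GENCODE v29, CHPT1 had the highest mean level of the 10 under DMSO, at 3601 in LNCaP, 7034 in 22Rv1 and 3358 in LNCaP95. The lowest level per kilobase under DMSO was that of CHKB in LNCaP (72.7) and LNCaP95 (52.2) and of PCYT1A in 22Rv1 (73.5). LPCAT1 per kilobase was 556 in LNCaP, 162 in 22Rv1 and 1315 in LNCaP95. Lengths are not from the authors' annotation, and a gene expressed from shorter transcripts would stand higher.

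Ratios of related enzymes within a library do not depend on the scaling between libraries. The ratio of CHPT1 to CEPT1 reads was 7.13 to 8.85 in LNCaP under DMSO and 13.1 to 16.0 at 500 nM, so treated libraries were higher without overlap. In 22Rv1 it was lower with treatment, at 13.9 to 15.5 under DMSO and 11.6 to 12.3 at 500 nM. In LNCaP95 it was also lower, at 5.43 to 8.70 under DMSO and 3.46 to 3.95 at 500 nM, in both lines without overlap. The ratio of PCYT2 to PCYT1A, the CTP-using enzymes of the ethanolamine and the choline route, was 0.894 to 1.19 in LNCaP under DMSO and 1.52 to 2.01 at 500 nM. In 22Rv1 the ranges were 2.59 to 4.21 and 4.15 to 5.05, and overlapped, as did those of LNCaP95, 1.15 to 1.48 and 1.12 to 1.19. The ratio of CHKA to CHKB was 12.8 to 15.1 in LNCaP95 under DMSO, 6.13 to 7.23 at 100 nM and 6.14 to 7.06 at 500 nM, and its ranges overlapped between DMSO and 500 nM in LNCaP (3.55 to 7.99 and 3.95 to 6.01) and in 22Rv1 (2.58 to 3.80 and 2.83 to 4.59). The fit across all genes has no counterpart for these ratios, so they are given as values with no test.

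**Figure D4:**
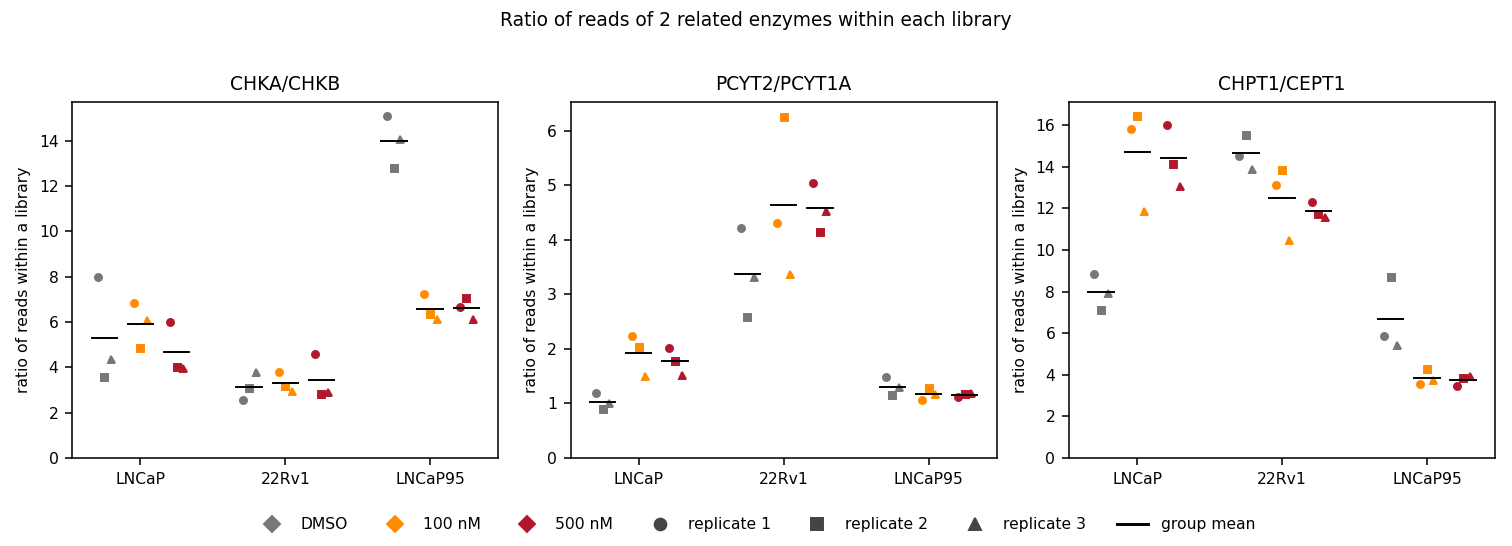
Ratio of reads (vertical axes, starting at 0) of CHKA to CHKB, PCYT2 to PCYT1A and CHPT1 to CEPT1 within each of the 27 libraries, by cell line along the horizontal axis. Grey, orange and red points are DMSO, 100 nM and 500 nM, the shape gives the replicate and lines are group means; CHPT1 to CEPT1 lies at 7.13 to 8.85 under DMSO and 13.1 to 16.0 at 500 nM in LNCaP.

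As a description of likeness, log2 values of the 9 enzymes called in 2 or more of the 6 comparisons with DMSO were centred within each line and compared over the 27 libraries by Pearson correlation with 10157 other genes that averaged 50 or more in each line. Libraries share treatment, depth and the state of the culture, so many genes correlate. LPCAT1 was most like QSOX1 (r = 0.97) and STX3 (0.96), and PCYT2 most like PITRM1 (0.96) and QSOX1 (0.94). LPCAT1 and PCYT2 had r = 0.90 with each other, the highest of any pair of the 10, and CHKA and CHPT1 followed with 0.85. CHKA was most like TRIM47 (0.92) and DCAF6 (0.90), CHPT1 like SYCP3 (0.89), its neighbour on the opposite strand, and CD276 (0.88), and CHKB like INSIG2 (0.87) and RTN1 (0.86). PTDSS1 was most like the glycolytic genes LDHA (0.92) and PKM (0.91). CEPT1 was most like RNF13 (0.88) and ZFAND6 (0.87), PEMT like DNPH1 (0.93) and VPS51 (0.91), and PISD, with the lowest values, like DHX37 (0.80) and DNAJC11 (0.78). The most negative pair within the 10 was CEPT1 with PTDSS1 (-0.68).

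Around these steps, 64 other genes of glycerophospholipid metabolism were taken from textbook pathways, with earlier results of these data known. At 500 nM, 13 rose and 3 fell of 58 tested in LNCaP (20.8% of all genes called), 8 rose and 2 fell of 61 in 22Rv1 (6.97%) and 18 rose and 14 fell of 60 in LNCaP95 (52.3%). With the replicate block the number called in LNCaP was 26 instead of 16, and the count in 22Rv1 was 6 instead of 10 without 500 nM replicate 2. Genes that supply phosphatidic acid and diacylglycerol, the lipid partner of the head group transferases, had 4 rises of 11 in LNCaP, 2 of 12 in 22Rv1 and 5 rises with 2 falls of 12 in LNCaP95, at median log2 fold changes of 0.23, 0.14 and 0.035. LPIN1, a phosphatidate phosphatase, rose in all 3 lines: from 499 ± 63.8 to 3043 ± 841 in LNCaP (SD, n = 3, 2.58 ± 0.39), from 583 ± 66.3 to 1287 ± 128 in 22Rv1 (1.14 ± 0.16) and from 979 ± 84.5 to 1979 ± 372 in LNCaP95 (1.0 ± 0.13). AGPAT9, the older symbol of the acyltransferase gene GPAT3, also rose in each: from 14.3 ± 5.80 to 71.3 ± 26.7 in LNCaP (2.22 ± 0.36), from 28.2 ± 8.16 to 99.6 ± 18.1 in 22Rv1 (1.80 ± 0.24) and from 126 ± 17.8 to 285 ± 9.88 in LNCaP95 (1.17 ± 0.12). AGPAT2, which acylates lysophosphatidic acid, rose in LNCaP95 (0.69 ± 0.088).

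Among the other lysophospholipid acyltransferases, the family of LPCAT1 by function, 2 of 8 rose in LNCaP, 2 rose and 1 fell of 9 in 22Rv1, and 3 rose and 2 fell of 8 in LNCaP95. Over all genes, 11.0% rose and 9.83% fell in LNCaP, 3.47% and 3.50% in 22Rv1 and 28.2% and 24.1% in LNCaP95. LPCAT3, which favours polyunsaturated chains, rose in all 3: from 2889 ± 64.5 to 4890 ± 248 in LNCaP (0.76 ± 0.13), from 1533 ± 25.6 to 2268 ± 117 in 22Rv1 (0.56 ± 0.085) and from 1919 ± 222 to 3242 ± 200.2 in LNCaP95 (0.76 ± 0.086). MBOAT7, which acylates lysophosphatidylinositol, rose in LNCaP (0.53 ± 0.12) and LNCaP95 (0.63 ± 0.085), and MBOAT2 in 22Rv1 (0.79 ± 0.13) and LNCaP95 (0.28 ± 0.085). On the other side of the Lands cycle, 3 of 11 phospholipases A rose in LNCaP, 2 of 11 in 22Rv1, and 4 rose and 3 fell of 11 in LNCaP95. ABHD4, a lysophospholipase, rose in all 3 lines (0.82 ± 0.18, 0.91 ± 0.13 and 0.69 ± 0.083). PNPLA8 rose in LNCaP95 (0.94 ± 0.075) and PLA2G4A rose in 22Rv1 (0.54 ± 0.14) but fell in LNCaP95, from 39.3 ± 10.3 to 16.2 ± 5.15 (-1.24 ± 0.31). PLA2G4C rose in LNCaP from 2.10 ± 1.85 to 34.4 ± 5.20, its DMSO libraries lying between 0 and 3.46, too few reads for a fold.

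Of the genes of choline and ethanolamine supply, 3 rose and 3 fell of 9 in LNCaP, 1 rose of 10 in 22Rv1, and 3 rose and 2 fell of 10 in LNCaP95. GDPD1, a glycerophosphodiester phosphodiesterase, fell in LNCaP from 443 ± 17.0 to 164 ± 19.0 (-1.43 ± 0.16), and PLD1, which releases choline from phosphatidylcholine, rose there from 41.8 ± 22.4 to 175 ± 54.0 (2.18 ± 0.48). GPCPD1, which breaks down glycerophosphocholine, rose in 22Rv1 (0.98 ± 0.17) and LNCaP95 (0.48 ± 0.16) and fell in LNCaP, from 418 ± 61.8 to 259.8 ± 28.9 (-0.68 ± 0.16). The choline transporter-like gene SLC44A4 rose in LNCaP (0.95 ± 0.29) and LNCaP95 (0.62 ± 0.11), and FLVCR1, a choline transporter, fell in LNCaP95 (-0.37 ± 0.08). Of the other head group enzymes, 1 of 7 rose in LNCaP, 1 of 7 fell in 22Rv1 and 4 of 7 fell in LNCaP95. The shares over all genes that rose and fell were 11.0% and 9.83% in LNCaP, 3.47% and 3.50% in 22Rv1, and 28.2% and 24.1% in LNCaP95. CHDH, which oxidises choline, rose in LNCaP (0.54 ± 0.11) and fell in LNCaP95 (-0.39 ± 0.12). ETNPPL, which degrades phosphoethanolamine, fell in 22Rv1 (-1.42 ± 0.35) and LNCaP95 (-0.77 ± 0.19), and PHOSPHO1, a phosphatase of phosphocholine and phosphoethanolamine, fell in LNCaP95 from 31.6 ± 8.70 to 8.77 ± 1.72 (-1.71 ± 0.30). The CDP-diacylglycerol branch, which leads to phosphatidylinositol and cardiolipin, had 0 calls of 7 in LNCaP and in 22Rv1 by limma, edgeR and DESeq2, with 2 and 0 genes at an unadjusted p under 0.05 by each of these tools. It had 2 rises (CDS1, 0.88 ± 0.17, and CDIPT, 0.31 ± 0.072) and 1 fall of 7 in LNCaP95. Ether lipid synthesis had 0 calls of 5 in LNCaP by the same 3 tools, with 1 gene at an unadjusted p under 0.05, and 1 rise of 5 each in 22Rv1 (FAR2, 0.47 ± 0.10) and LNCaP95 (AGPS, 0.39 ± 0.093).

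**Figure D5:**
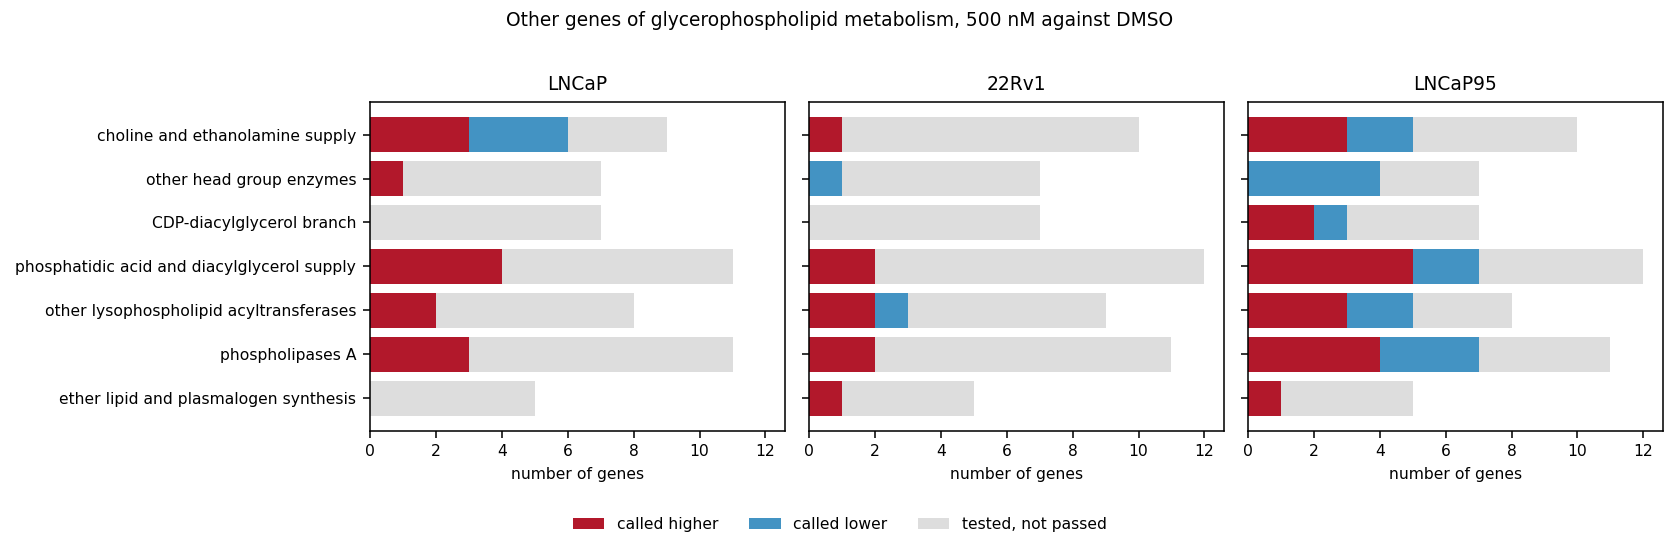
Number of genes (horizontal axes, starting at 0) of 7 lists of glycerophospholipid metabolism (vertical axis), without the 10 enzymes, in the comparison of 500 nM with DMSO in each line. Red is called higher, blue called lower and grey tested but not passed; in LNCaP95 4 of 7 other head group enzymes were lower, as were 24.1% of all genes.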

How the data were processed

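Poly(A) RNA was sequenced with a directional kit in 27 libraries, 3 for each of 9 groups. Reads were aligned with STAR 2.3.1z4 to hg19 and counted with featureCounts, and counts were normalised with DESeq, per the submitters' processing notes; whether the counting used strand: not given in the sources used here. The signal the authors deposited is a count divided by a size factor. Every value was a whole multiple of what 1 read is worth in its library (100% of values, tolerance 1e-06), so whole reads were recovered for the count models. The values as deposited are normalised, so limma was the main test and the count models were alternatives. Genes were tested on log2(value + 1) with limma 3.58.1 (R 4.3.3), two-sided, with Benjamini-Hochberg adjustment over all genes kept. Fits of 1 line kept genes with a value of 10 or more in at least 3 of the 9 libraries of that line. Fits of common effects and of differences between lines kept the 11761 genes that passed this in each line. Comparisons of lines under DMSO kept the 14026 genes at 10 or more in at least 3 of the 9 DMSO libraries. Each dose was compared with DMSO in the 9 libraries of its line, effects common to lines in 18, and differences between lines in 27. Fold changes on this scale understate the change of low genes. Alternatives were a pseudocount of 4, no filter, equal totals, edgeR 4.0.16, DESeq2 1.42.0, a replicate block, leaving out each library, and dropping LNCaP replicate 1 or LNCaP95 replicate 2 libraries. Scripts were tested on simulated data. Same-numbered libraries deviated together in LNCaP for DMSO with 500 nM (r = 0.13 to 0.32 over genes) and for the doses (0.26 to 0.39). They also did in LNCaP95 in all 3 pairs of groups (0.13 to 0.47), so the number was taken to pair those libraries from the data. The main fits had no term for the number even there, and only the replicate block had one. The number was not taken to pair the other libraries. There r was -0.0031 to 0.082 for DMSO with 100 nM in LNCaP. In 22Rv1 r was 0.071 to 0.21 for DMSO with 500 nM, -0.29 to 0.39 for DMSO with 100 nM and -0.19 to 0.15 for the doses. For DMSO with 500 nM in 22Rv1, each 500 nM library was most like the DMSO library of its own number. The same held in the groups taken as paired, so whether the number pairs these 22Rv1 libraries is undecided. No libraries were identical (0 pairs), and 1 read was worth 0.757 to 1.39, which bounds precision for CHKB. The 10 enzymes and all lists were chosen with earlier results of these data known. Other genes were named by a rule: from each list, up to 2 called genes per line with the smallest p at 500 nM, and, for likeness, the 2 genes with the highest correlation.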

Additional observations from a re-analysis of the deposited data

Results flagged for a closer look

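In 16 cases the effect of 500 nM on an enzyme differed between 2 cell lines by a test of the difference in limma, at an adjusted p under 0.05 over all genes. Each value is the log2 fold change in the line named first minus that in the line named second. For 22Rv1 minus LNCaP they were CHPT1 (-1.28), CHKB (-0.97) and CHKA (-0.74). CHPT1 had opposite signs in these lines. For LNCaP95 minus LNCaP they were CHPT1 (-1.19), PCYT2 (-0.99), CHKA (-0.80), LPCAT1 (-0.71), PTDSS1 (-0.66), PISD (-0.52), PEMT (0.76) and CEPT1 (0.47). LPCAT1 rose in both lines and the difference is one of size. For LNCaP95 minus 22Rv1 they were CHKB (1.11), CEPT1 (0.59), PCYT2 (-0.74), PTDSS1 (-0.68) and LPCAT1 (-0.43). Of all genes, 14.3%, 38.9% and 25.4% differed in the same 3 tests.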

How the results depend on the processing

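No value of the 10 enzymes that was called changed direction under any alternative run. With an alternative pseudocount of 4 the number of genes and of enzymes called stayed within 1.5 times of the main count in every comparison. With equal totals 8 instead of 5 enzymes were called between LNCaP95 and 22Rv1 under DMSO. The comparison of 500 nM with 100 nM in LNCaP had 1 gene called, 87 by DESeq2, 0 with the replicate block, 755 with replicates 2 and 3 only and 0 to 67 when a library was left out, and the cause was not tested. Leaving out a library gave 1475 to 3891 genes at 500 nM in LNCaP (2671 with all), 1736 to 4617 at 100 nM (3250), 384 to 697 at 500 nM in 22Rv1 (946) and 261 to 1184 at 100 nM (889), from fewer samples. With the replicate block CHKA at 500 nM and PCYT1A at 100 nM in LNCaP95 and PTDSS1 at 100 nM in LNCaP (adjusted p = 0.0464 by limma) passed, and CHKB over the 3 lines did not; the block changed no other call of the 10 enzymes. In 22Rv1, and for 100 nM with DMSO in LNCaP, the number was not taken to pair the libraries. For DMSO with 500 nM in 22Rv1, r of same-numbered libraries was 0.071 to 0.21. CHKB rests on as few as 73 reads in a library, and 3 libraries per group limit the precision of every value.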
